A study of Mus musculus with 30 samples.

Results

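The 40 genes described here encode proteins that make ribosomes in the nucleolus, chosen as the rows of the expression table that carry 40 listed symbols for transcription and processing of ribosomal RNA (rRNA). All 40 were found among the 21841 genes of the table, and all 40 passed the filter on low counts that left 13663 genes to test. They were measured by bulk RNA sequencing in 30 mammary tumors of MMTV-PyMT mice, in 6 groups of 5 libraries. Each fold change was tested with the quasi-likelihood test of edgeR across all 13663 genes, and levels are in CPM (counts divided by the TMM-adjusted total of each library and put on a common scale).

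The mice were FVB/N-Tg(MMTV-PyVT)634Mul/J, in which a mammary tumor virus promoter drives the polyoma middle T oncogene in mammary epithelium so that tumors arise spontaneously, and the labels give the genotype WT in all 6 groups. The vehicle group received vehicle alone. The 5-FU group received 5-fluorouracil at 40 mg/kg every 4 days, the gemcitabine group gemcitabine at 64 mg/kg every 7 days, and the KCL-HO-1i group 25 µmol/kg daily of KCL-HO-1i, a tin mesoporphyrin inhibitor of the heme-degrading enzyme heme oxygenase-1 (HO-1). The combination groups, named KCL-HO-1i/5-FU and by the same rule KCL-HO-1i/gemcitabine, received both agents, and the labels give 72 hours of intraperitoneal treatment. The methods of the study state another duration and another gemcitabine dose, so both are given here as the labels have them. The study describes its cohorts as separate mice and tumors and spontaneous tumors as collected on separate days, but the labels give no collection day, so day could not be set against the groups.

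A ribosome starts in the nucleolus, where RNA polymerase I copies the rRNA genes into a long precursor. The small-subunit processome gathers on the precursor as it is made, small nucleolar ribonucleoproteins (snoRNPs) modify its nucleotides, and a separate set of factors cuts out and folds the rRNA of the large subunit. Growing cells need many ribosomes, so these genes are known to be high in dividing tumor cells and to be among the targets of the transcription factor Myc. Incorporation of 5-FU into RNA is known to disturb the later processing steps, whereas gemcitabine acts chiefly on DNA synthesis.

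Promoter sequences of 3 members are shown because they hold the letters of motifs that recur among the 40 genes within the stretch searched, which was 250 bases before to 50 bases after each RefSeq start (GRCm38.p6). A promoter was given for 31 of the 40 genes. The palindromic E-box CACGTG, a sequence that Myc with its partner Max can bind, was in 6 of the 31 (19.4%), in 8.09% of all 27025 genes with a promoter and in 11.5% of the 10701 of them that were tested. The ETS core CCGGAAG, searched on both strands (CTTCCGG on the other), was in 11 of the 31 (35.5%), in 9.93% of all genes with a promoter and in 18.9% of those tested. The motifs share no overlapping letters in these windows. Within 110 bases before the start, 7 of the genes held a motif, and the 3 windows that overlap no annotated exon are printed in lower case with the motifs in capitals, on the strand of the gene.
Nop2, chr6:125131773-125131882, plus strand: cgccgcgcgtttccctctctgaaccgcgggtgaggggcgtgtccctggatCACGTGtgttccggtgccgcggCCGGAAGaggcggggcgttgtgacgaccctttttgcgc
Nolc1, chr19:46075737-46075846, plus strand: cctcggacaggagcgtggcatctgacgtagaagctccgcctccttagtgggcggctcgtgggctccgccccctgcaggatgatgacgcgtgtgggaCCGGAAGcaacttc
Pwp2, chr10:78185150-78185259, minus strand: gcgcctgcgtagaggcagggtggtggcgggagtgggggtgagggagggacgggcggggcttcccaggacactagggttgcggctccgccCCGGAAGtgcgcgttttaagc
Nop2, an rRNA methyltransferase of the large subunit, held both motifs in this window, and Nolc1, a chaperone of snoRNPs, and Pwp2, a subunit of the processome, held the ETS core. A match is a description of these letters and not a binding site.

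Total counts per library ran from 10067698 to 13622395, and the lowest count of any of the 40 genes in any library was 95. All 15 luminal epithelium markers were detected in every library, with summed levels from 3137 to 7421 CPM. Markers of other cells varied far more, with summed adipocyte markers from 54.7 to 14021 CPM (7 of 12 at 0 in some library), skeletal muscle markers from 1.22 to 14513 CPM (11 of 12 at 0 in some library) and macrophage markers from 149 to 2317 CPM (1 of 12 at 0 in some library). In these bulk samples fewer cells of a type and less RNA per cell cannot be told apart. Mouse codes in the labels carry 1 of 13 numbers whose meaning is not stated, and 7 of the numbers occur in more than 1 group.

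Levels between genes were compared per kilobase of exon (CPM per kb, GENCODE M21 annotation of mm10) in the vehicle group. The length joined all annotated exons of a gene, so it can exceed that of the transcripts present. Npm1, which encodes the abundant nucleolar chaperone nucleophosmin, was highest with a median of 277 CPM per kb, followed by Pes1 with 48.7, Fbl with 34.5 and Ncl with 32.0. This order depends on the length used, 10188 bases for Ncl and 3024 for Pes1. Before division by length the vehicle median of Ncl was above that of Pes1, 326 against 147 CPM. Npm1 has processed pseudogenes with which reads may be shared, so its level is uncertain. Polr1a, the largest subunit of RNA polymerase I, was lowest with 1.96 CPM per kb, beside Tbl3 with 2.03. Before division by length Polr1a was above Tbl3, 23.3 against 11.6 CPM. The vehicle ranges of Fbl (29.0 to 43.1 CPM per kb) and Ncl (26.0 to 40.6) overlapped, as did those of Tbl3 (1.55 to 2.65) and Polr1a (1.69 to 2.81), so those neighbors in the order were not apart.

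The ribosome biogenesis genes were lower in tumors that received KCL-HO-1i, by little per gene but in nearly all genes, and they were higher in 2 gemcitabine tumors. The KCL-HO-1i difference was smaller without chemotherapy, with a median log2 fold change of -0.12 against vehicle. It was largest when KCL-HO-1i was added to gemcitabine, at -0.37 against gemcitabine. Gemcitabine and KCL-HO-1i/gemcitabine share no mouse code number, nor do vehicle and KCL-HO-1i, and 5-FU and KCL-HO-1i/5-FU share 1. The mean log2 CPM of the 40 genes was 5.95 ± 0.151 with vehicle, 5.85 ± 0.207 with 5-FU, 6.15 ± 0.297 with gemcitabine, 5.84 ± 0.0603 with KCL-HO-1i, 5.67 ± 0.115 with KCL-HO-1i/5-FU and 5.77 ± 0.0928 with KCL-HO-1i/gemcitabine (SD, n = 5). No member passed an adjusted p of 0.05 (edgeR quasi-likelihood, Benjamini-Hochberg over all genes tested) in any of the 14 contrasts or in the test of any difference among the 6 groups. That last test called 0.651% of all genes, and the smallest adjusted p of a member in it was 0.0641, for Polr1b. Among the 14 contrasts only the KCL-HO-1i average called any gene (0.0586% of all genes), so the counts below use an unadjusted p under 0.05 and are read against the share of all genes that passed the same limit in the same direction. Because the members rose and fell together between tumors (median r of pairs 0.54 after removal of group means), such a count is not one of independent results.

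**Figure D1:**
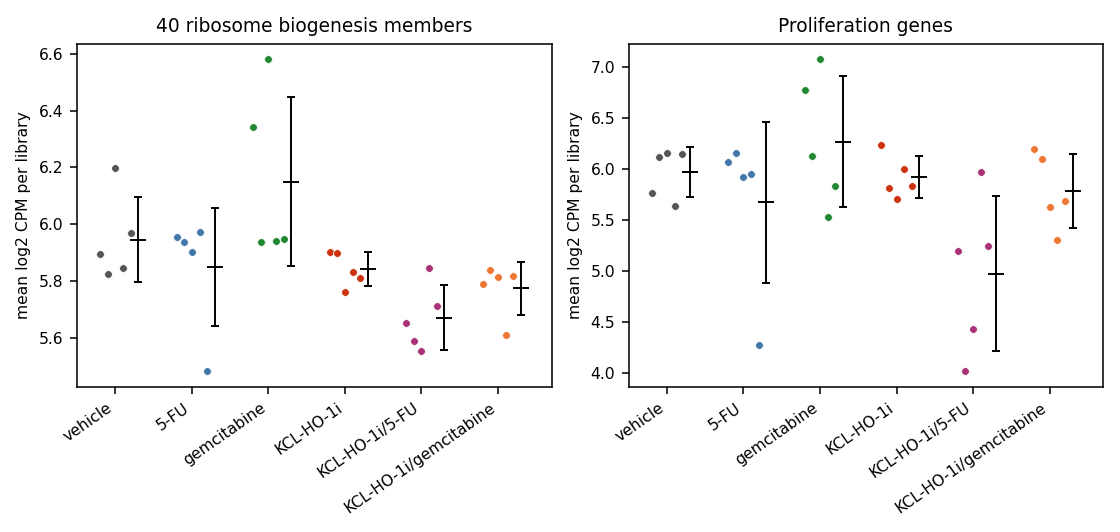
Mean log2 CPM of the 40 ribosome biogenesis genes (left) and of the proliferation genes (right), with 1 point per library in replicate order and the group mean ± SD (n = 5) in black. Gemcitabine replicates 1 and 3 sit highest and 5-FU replicate 5 lowest in the left panel, and the same gemcitabine libraries are highest in the right panel.

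The difference with KCL-HO-1i was taken as the average of 3 differences, each between libraries with the inhibitor and libraries without it on the same background of vehicle, 5-FU or gemcitabine. All 40 members were lower with KCL-HO-1i on this average, with a median log2 fold change of -0.21 (a change of -13.4%), whereas the median over all genes tested was -0.00069. Of the 40, 33 were lower at an unadjusted p under 0.05 and 0 were higher, where 9.22% of all genes were lower. With the mouse code of the labels as a term in the fit, none of the 40 was lower at that limit, where 3.82% of all genes were. With KCL-HO-1i alone against vehicle, 1 of the 40 was lower at that limit, where 2.08% of all genes were. The group mean was lower with KCL-HO-1i in each of the 3 backgrounds for 34 of the 40 members (85%) and for 18.8% of all genes. Of the 15 KCL-HO-1i libraries, between 10 and 15 lay below the mean of their own background for any member (median 13), and for Utp18, Fbl and Ddx18 all 15 did.

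The smallest adjusted p of a member was 0.0525, shared by Utp15, Rrp1b and Noc3l. DESeq2 called 16 of the 40 lower at an adjusted p under 0.05 and limma-voom with sample quality weights called 5, of 8.38% and 1.95% of all genes called by the same tool in either direction. The 5 called by limma-voom were Utp15, Rrp1b, Bms1, Noc3l and Heatr1, and all 5 were among the 16 of DESeq2. Leaving out gemcitabine replicate 5 raised the edgeR calls from 0 to 18, and leaving out 5-FU replicate 5, KCL-HO-1i/5-FU replicate 4 or KCL-HO-1i replicate 1 gave 16, 15 and 10. With KCL-HO-1i replicate 5, KCL-HO-1i/5-FU replicate 5 or KCL-HO-1i/gemcitabine replicate 4 left out the calls were 8, 6 and 4, and with any other library left out 0. In the main fit 17 members and 1278 of all 13663 genes had an adjusted p under 0.1. The share of all genes called with a library left out is not given here. These counts therefore show how near the limit the values lay and are not a result about the members.

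**Figure D2:**
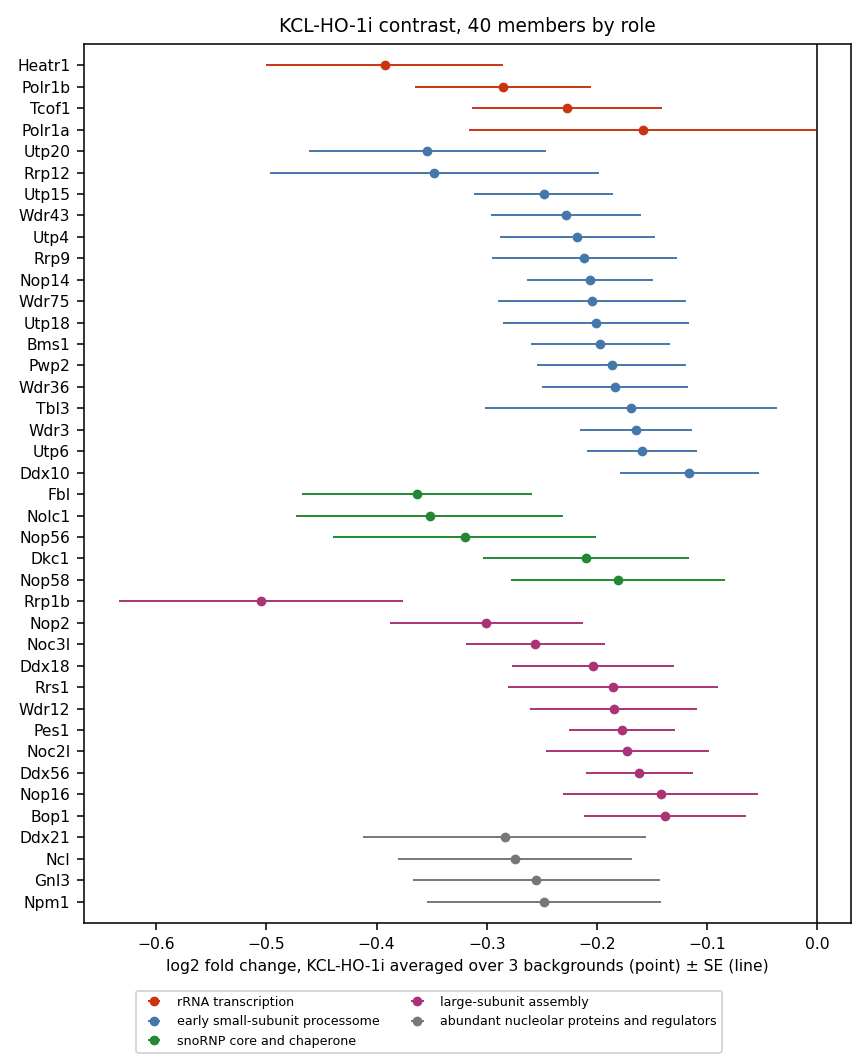
Log2 fold change (horizontal axis) of each of the 40 members for KCL-HO-1i averaged over 3 backgrounds, with the SE of the edgeR fit as a line and colors for the roles of the proteins. Every point lies below 0, from -0.12 for Ddx10 to -0.50 for Rrp1b.

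Among the 4 genes of rRNA transcription, 3 were lower at an unadjusted p under 0.05 on the KCL-HO-1i average. Heatr1, a factor that joins RNA polymerase I to early processing (chr13:12395027-12440289), had the largest difference of the 4. Heatr1 was at 24.0, 32.0, 54.4, 37.7 and 40.3 CPM in the vehicle libraries, 39.3, 36.8, 31.4, 24.6 and 24.6 with 5-FU and 42.0, 33.1, 40.3, 48.0 and 32.7 with gemcitabine, in replicate order. Its levels were 39.5, 31.5, 27.0, 32.9 and 31.3 CPM with KCL-HO-1i, 19.4, 28.2, 25.7, 35.6 and 21.3 with KCL-HO-1i/5-FU and 22.2, 26.5, 27.6, 19.7 and 25.1 with KCL-HO-1i/gemcitabine. The KCL-HO-1i/gemcitabine libraries lay between 19.7 and 27.6 CPM and below all 5 of gemcitabine, while the vehicle libraries spread from 24.0 to 54.4. The log2 fold change on the average was -0.39 ± 0.108 (SE, adjusted p = 0.0558), and against vehicle in KCL-HO-1i/gemcitabine it was -0.64 ± 0.187 (SE, adjusted p = 0.0916).

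Polr1b, the second-largest subunit of RNA polymerase I (chr2:129100995-129126594), had the smallest p of all members in the test among the 6 groups. Polr1b was at 38.4, 39.6, 42.9, 37.2 and 41.9 CPM in the vehicle libraries, 34.0, 36.2, 36.5, 39.6 and 25.5 with 5-FU and 56.0, 42.9, 69.9, 39.8 and 39.9 with gemcitabine, in replicate order. Its levels were 40.0, 39.5, 30.2, 33.6 and 34.4 CPM with KCL-HO-1i, 31.5, 34.4, 24.4, 35.6 and 30.8 with KCL-HO-1i/5-FU and 32.5, 33.4, 34.9, 30.6 and 37.9 with KCL-HO-1i/gemcitabine. All 5 KCL-HO-1i/5-FU values lay below the lowest vehicle value, and all 5 KCL-HO-1i/gemcitabine values below the lowest gemcitabine value. Its log2 fold change was -0.29 ± 0.08 (SE, adjusted p = 0.056) on the KCL-HO-1i average and -0.55 ± 0.139 (SE, adjusted p = 0.282) for KCL-HO-1i/gemcitabine against gemcitabine.

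Tcof1, which encodes treacle, the factor that brings RNA polymerase I to the rRNA genes, was at -0.23 ± 0.087 (SE, adjusted p = 0.121) in log2 fold change on the average. Its mean was 74.2 ± 7.99 CPM with vehicle, 91.9 ± 20.9 with gemcitabine and 69.3 ± 12.2 with KCL-HO-1i/gemcitabine (SD, n = 5). Polr1a stood apart from the rest of the group. Polr1a was at 20.1, 24.7, 33.4, 22.3 and 23.3 CPM in the vehicle libraries, 28.9, 12.5, 33.5, 28.2 and 27.3 with 5-FU and 32.2, 21.1, 28.4, 44.9 and 19.3 with gemcitabine, in replicate order. Its levels were 26.3, 24.6, 24.2, 15.7 and 20.3 CPM with KCL-HO-1i, 23.9, 31.4, 21.5, 43.5 and 18.2 with KCL-HO-1i/5-FU and 15.3, 22.8, 15.0, 34.9 and 22.2 with KCL-HO-1i/gemcitabine. It spread from 12.5 to 44.9 CPM with overlap among all 6 groups, and its log2 fold change was -0.16 ± 0.157 (SE, adjusted p = 0.586).

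In the early small-subunit processome, 14 of 16 members were lower at an unadjusted p under 0.05, with a median log2 fold change of -0.20. Utp15, a subunit of the complex that starts processome assembly (chr13:98246845-98263041), was the member whose KCL-HO-1i libraries separated most fully from vehicle. Utp15 was at 36.2, 35.8, 40.3, 36.8 and 37.6 CPM in the vehicle libraries, 38.6, 36.4, 34.4, 37.4 and 27.7 with 5-FU and 46.9, 36.9, 54.0, 36.6 and 34.5 with gemcitabine, in replicate order. Its levels were 34.9, 32.3, 30.5, 29.5 and 35.1 CPM with KCL-HO-1i, 28.8, 27.9, 28.0, 35.3 and 33.3 with KCL-HO-1i/5-FU and 32.5, 30.5, 33.5, 33.01 and 33.6 with KCL-HO-1i/gemcitabine. All 15 libraries with KCL-HO-1i lay below all 5 vehicle libraries, although the gap was narrow, 35.3 against 35.8 CPM. For Utp15 the log2 fold change was -0.25 ± 0.063 (SE, adjusted p = 0.0525). Genes whose 5 libraries all lay below vehicle made up 0.417% of all genes when KCL-HO-1i was given alone, 2.07% when it was given with 5-FU and 1.84% when it was given with gemcitabine. Of the members, Utp15 alone did so without chemotherapy, Utp15 and Polr1b did so with 5-FU, and Utp15 and Utp20 with gemcitabine.

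Utp20, a large scaffold of the processome (chr10:88746607-88826804), varied more between tumors. Utp20 was at 43.1, 40.9, 55.7, 45.1 and 50.1 CPM in the vehicle libraries, 57.1, 43.0, 46.5, 37.8 and 26.7 with 5-FU and 70.4, 42.7, 64.4, 52.4 and 32.3 with gemcitabine, in replicate order. Its levels were 41.1, 47.6, 33.2, 39.7 and 31.0 CPM with KCL-HO-1i, 35.1, 31.2, 32.9, 49.5 and 39.8 with KCL-HO-1i/5-FU and 31.5, 39.9, 34.9, 32.7 and 32.4 with KCL-HO-1i/gemcitabine. The 5 KCL-HO-1i/gemcitabine values, 31.5 to 39.9 CPM, lay below the vehicle range of 40.9 to 55.7, but gemcitabine itself spread from 32.3 to 70.4. The average log2 fold change of Utp20 was -0.35 ± 0.108 (SE, adjusted p = 0.0652).

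Utp6, another processome subunit, did not follow the other members from tumor to tumor but was lower with KCL-HO-1i as well. Utp6 was at 79.9, 74.41, 83.8, 105 and 85.7 CPM in the vehicle libraries, 82.6, 87.1, 87.1, 92.0 and 85.4 with 5-FU and 75.6, 101, 100.3, 88.3 and 88.01 with gemcitabine, in replicate order. Its levels were 80.6, 79.0, 76.7, 76.18 and 84.4 CPM with KCL-HO-1i, 75.3, 81.0, 78.9, 72.5 and 67.8 with KCL-HO-1i/5-FU and 81.4, 77.9, 92.6, 76.8 and 77.3 with KCL-HO-1i/gemcitabine. All 5 KCL-HO-1i/5-FU libraries lay below all 5 of 5-FU, which 0.629% of all genes did and no other member. Its log2 fold change was -0.16 ± 0.05 (SE, adjusted p = 0.0704) on the average and -0.21 ± 0.086 (SE, adjusted p = 0.367) for KCL-HO-1i/5-FU against 5-FU. The processome members whose p did not pass the limit were Ddx10, an RNA helicase at -0.12 ± 0.063 (SE, adjusted p = 0.269), and the scarce Tbl3 at -0.17 ± 0.132 (SE, adjusted p = 0.473).

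Of the 5 snoRNP genes, 4 were lower at an unadjusted p under 0.05 and their median log2 fold change was -0.32, the lowest of the 5 roles. Fbl encodes fibrillarin, the methyltransferase of the box C/D snoRNPs (chr7:28169710-28179269). Fbl was at 145, 122, 157, 137 and 181 CPM in the vehicle libraries, 138, 153, 183, 165 and 119.6 with 5-FU and 202, 134, 333, 129 and 159 with gemcitabine, in replicate order. Its levels were 147, 138, 125, 138 and 133 CPM with KCL-HO-1i, 119.5, 107, 99.3, 123 and 116 with KCL-HO-1i/5-FU and 151, 129, 135, 102 and 141 with KCL-HO-1i/gemcitabine. Gemcitabine replicate 3 was the highest of all 30, and the 5 KCL-HO-1i/5-FU libraries, 99.3 to 123 CPM, lay below the lowest KCL-HO-1i library. On the average the log2 fold change of Fbl was -0.36 ± 0.104 (SE, adjusted p = 0.0582).

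Nop56, a core protein of the same particles, had means of 90.2 ± 15.3 CPM with vehicle, 124 ± 48.5 with gemcitabine and 71.05 ± 16.2 with KCL-HO-1i/5-FU (SD, n = 5). Its log2 fold change on the average was -0.32 ± 0.119 (SE, adjusted p = 0.113). Nolc1 was at -0.35 ± 0.121 (SE, adjusted p = 0.0935) on the average, and Nop58, the partner of Nop56, was the snoRNP gene that did not pass the limit, at -0.18 ± 0.097 (SE, adjusted p = 0.266).

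Dkc1, which encodes dyskerin, the pseudouridine synthase of the box H/ACA snoRNPs (chrX:75095854-75109777), was the member with the smallest p in the interaction of KCL-HO-1i and 5-FU. Dkc1 was at 77.3, 66.6, 83.4, 59.7 and 75.3 CPM in the vehicle libraries, 79.4, 78.1, 78.8, 103 and 55.2 with 5-FU and 113, 82.6, 144, 57.9 and 86.7 with gemcitabine, in replicate order. Its levels were 83.1, 90.6, 80.3, 80.6 and 74.2 CPM with KCL-HO-1i, 62.4, 56.1, 55.7, 58.2 and 58.0 with KCL-HO-1i/5-FU and 76.7, 77.9, 74.8, 67.0 and 80.5 with KCL-HO-1i/gemcitabine. All 5 KCL-HO-1i/5-FU libraries were low, 55.7 to 62.4 CPM, and below the 5 KCL-HO-1i libraries, 74.2 to 90.6, but 1 library each of vehicle, 5-FU and gemcitabine was as low. The log2 fold change of KCL-HO-1i/5-FU was -0.49 ± 0.162 (SE, adjusted p = 0.134) against KCL-HO-1i and -0.44 ± 0.162 (SE, adjusted p = 0.344) against 5-FU. That interaction, the KCL-HO-1i difference with 5-FU minus the one without it, was -0.62 ± 0.228 (SE, adjusted p = 0.486) in log2 units for Dkc1.

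Of the 11 large-subunit assembly genes, 8 were lower at an unadjusted p under 0.05, with a median log2 fold change of -0.18. Rrp1b, a nucleolar protein that also binds chromatin (chr17:32036100-32062865), had the lowest value of the 40. Rrp1b was at 32.98, 25.6, 46.5, 28.2 and 32.95 CPM in the vehicle libraries, 36.7, 34.5, 30.8, 24.2 and 18.4 with 5-FU and 47.5, 33.5, 58.0, 27.9 and 31.3 with gemcitabine, in replicate order. Its levels were 32.8, 19.5, 28.4, 29.0 and 27.1 CPM with KCL-HO-1i, 11.5, 23.1, 20.1, 29.0 and 19.2 with KCL-HO-1i/5-FU and 24.8, 20.5, 23.7, 22.8 and 26.6 with KCL-HO-1i/gemcitabine. KCL-HO-1i/5-FU replicate 1, at 11.5 CPM, was the lowest library, and the KCL-HO-1i/gemcitabine range of 20.5 to 26.6 lay below that of gemcitabine, 27.9 to 58.0. Its log2 fold change was -0.50 ± 0.129 (SE, adjusted p = 0.0525) on the average and -0.69 ± 0.224 (SE, adjusted p = 0.135) for KCL-HO-1i/5-FU against vehicle.

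Noc3l, a factor in transport of the large-subunit precursor (chr19:38788128-38819237), had the smallest p of the 40. Noc3l was at 27.9, 27.7, 34.2, 36.9 and 34.4 CPM in the vehicle libraries, 31.8, 33.2, 25.0, 32.5 and 23.0 with 5-FU and 34.1, 29.6, 36.1, 32.6 and 33.4 with gemcitabine, in replicate order. Its levels were 32.3, 26.8, 26.9, 28.0 and 29.6 CPM with KCL-HO-1i, 21.4, 26.3, 23.4, 28.0 and 24.7 with KCL-HO-1i/5-FU and 23.4, 27.2, 28.9, 23.7 and 25.1 with KCL-HO-1i/gemcitabine. The KCL-HO-1i/gemcitabine values, 23.4 to 28.9 CPM, lay below all 5 gemcitabine values, while the vehicle and 5-FU libraries overlapped the KCL-HO-1i groups. The log2 fold change of Noc3l was -0.26 ± 0.063 (SE, adjusted p = 0.0525).

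Pes1 and Bop1 encode partners in the complex that matures large-subunit rRNA. Pes1 was the single member past that limit when KCL-HO-1i alone was set against vehicle, where 2.08% of all genes were lower, and its log2 fold change was -0.20 ± 0.083 (SE, adjusted p = 0.457). Pes1 was at 171, 144, 177, 147 and 146 CPM in the vehicle libraries, 142, 161, 158, 152 and 139 with 5-FU and 191, 159, 182, 142 and 154 with gemcitabine, in replicate order. Its levels were 137, 148, 134, 132 and 132 CPM with KCL-HO-1i, 137, 138, 131, 155 and 138 with KCL-HO-1i/5-FU and 145, 134, 153, 128 and 146 with KCL-HO-1i/gemcitabine. KCL-HO-1i replicate 2 overlapped the vehicle range and the other 4 KCL-HO-1i libraries lay below it. On the average Pes1 was at -0.18 ± 0.048 (SE, adjusted p = 0.0556) and Bop1 at -0.14 ± 0.073 (SE, adjusted p = 0.262). Nop16 and Rrs1 did not pass the limit, at -0.14 ± 0.088 (SE, adjusted p = 0.347) and -0.19 ± 0.095 (SE, adjusted p = 0.243).

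All 4 abundant nucleolar proteins and regulators were lower at an unadjusted p under 0.05, with a median of -0.26. Ncl, which encodes nucleolin, had means of 328 ± 57.2 CPM with vehicle, 414 ± 164 with gemcitabine, 304 ± 40.7 with KCL-HO-1i and 264 ± 31.9 with KCL-HO-1i/5-FU (SD, n = 5), and its log2 fold change on the average was -0.27 ± 0.106 (SE, adjusted p = 0.126). Gnl3, which encodes nucleostemin, a GTPase of proliferating and stem cells, was at -0.26 ± 0.112 (SE, adjusted p = 0.17). Npm1 was measured with the caveat on its pseudogenes given above. Npm1 was at 841, 695, 1004, 621 and 739 CPM in the vehicle libraries, 916, 865, 814, 831 and 575 with 5-FU and 1411, 919, 1558, 622 and 826 with gemcitabine, in replicate order. Its levels were 756, 749.8, 844, 767 and 779 CPM with KCL-HO-1i, 626, 531, 624, 635 and 637 with KCL-HO-1i/5-FU and 909.6, 814, 1017, 619.9 and 819 with KCL-HO-1i/gemcitabine. The 5 KCL-HO-1i/5-FU libraries, 531 to 637 CPM, lay below the 5 KCL-HO-1i libraries, and gemcitabine replicates 1 and 3 were the highest of the 30. The average log2 fold change of Npm1 was -0.25 ± 0.106 (SE, adjusted p = 0.161).

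**Figure D3:**
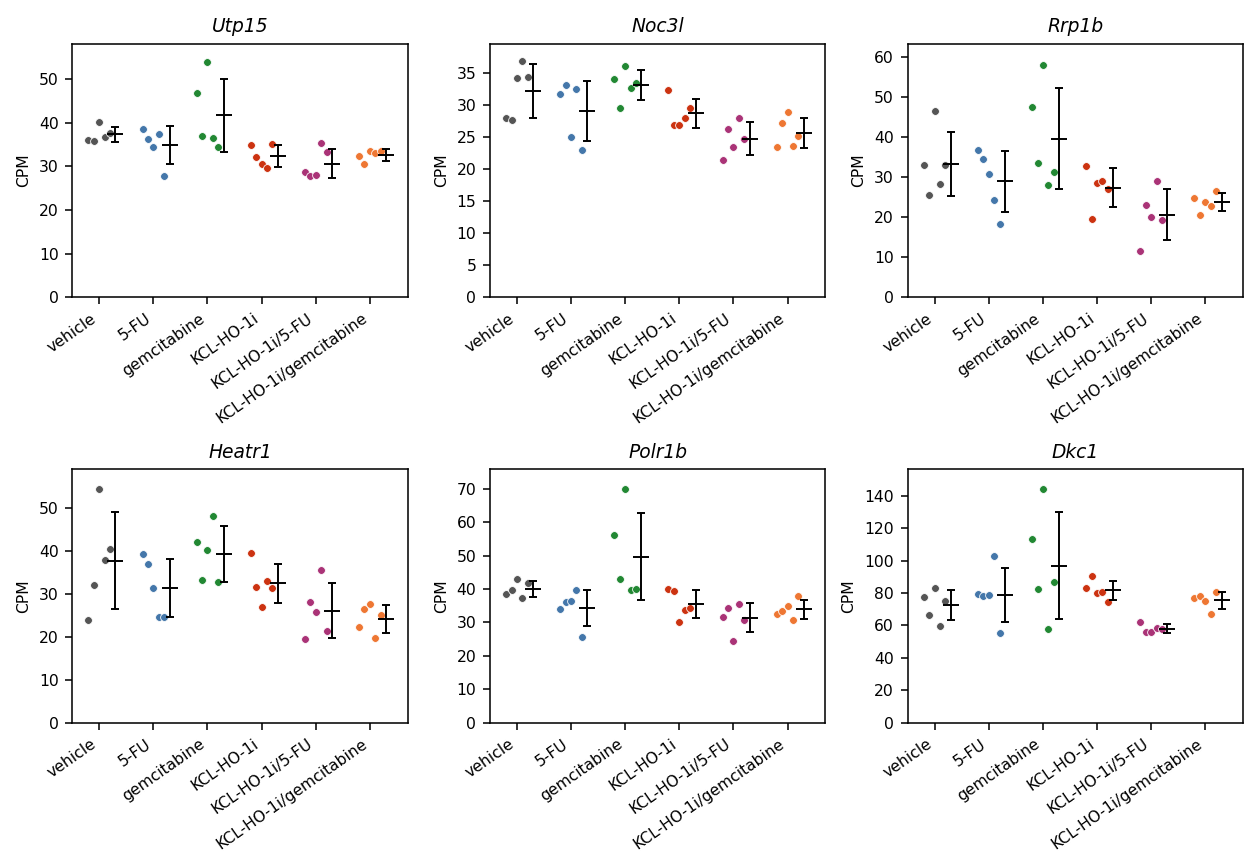
CPM (vertical axis, from 0) of 6 members in each of the 30 libraries, with 1 point per library and the group mean ± SD (n = 5) in black. All 15 Utp15 points with KCL-HO-1i lie below the vehicle points, and the KCL-HO-1i/5-FU points of Dkc1 lie below all its KCL-HO-1i points.

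Markers of other cells moved with KCL-HO-1i on the same average. Of the 12 macrophage markers 10 were higher at an unadjusted p under 0.05, where 1877 of all 13663 genes were. Their summed level ran from 149 to 949.9 CPM with vehicle, 360 to 1380 with 5-FU and 227 to 1158 with gemcitabine. It ran from 576 to 1701 with KCL-HO-1i, 517 to 2317 with KCL-HO-1i/5-FU and 806 to 1918 with KCL-HO-1i/gemcitabine. The median sum was higher with KCL-HO-1i than with vehicle (840 against 480 CPM) and with KCL-HO-1i/gemcitabine than with gemcitabine (1321 against 385). It was lower with KCL-HO-1i/5-FU than with 5-FU (680 against 796). The macrophage score, the mean log2 CPM of these markers, went the other way there. Its mean was 5.01 ± 0.767 with KCL-HO-1i/5-FU against 4.63 ± 0.667 with 5-FU (SD, n = 5). All 12 adipocyte markers were also higher on the average, as were all 12 of skeletal muscle and all 12 of fibroblasts and matrix, but not in every background. The adipocyte sums were 102 to 637 CPM with vehicle, 54.7 to 399 with 5-FU and 58.0 to 2462 with gemcitabine. They were 121 to 10374 CPM with KCL-HO-1i, 70.23 to 493 with KCL-HO-1i/5-FU and 69.9 to 14021 with KCL-HO-1i/gemcitabine. In KCL-HO-1i/5-FU against 5-FU all 12 skeletal muscle markers were below 0, with a median log2 fold change of -2.50 and 0 at an unadjusted p under 0.05. With the macrophage score of each library as a covariate, all 40 members stayed below 0 with a median of -0.099 and 5 of them passed an unadjusted p of 0.05, when 1.3% of all genes did. With the adipocyte score 21 passed with a median of -0.17, where 4.18% of all genes did, and with the luminal epithelium score 33 passed with a median of -0.21, where 8.24% did. For KCL-HO-1i alone against vehicle the macrophage score turned the median from -0.12 to 0.019. The macrophage covariate was chosen after seeing the data.

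Proliferation genes were lower on the KCL-HO-1i average too. Of the 24 proliferation genes 15 were lower at an unadjusted p under 0.05, where 9.22% of all genes were, with a median log2 fold change of -0.44. With KCL-HO-1i alone against vehicle 16 of the 24 were below 0, with a median of -0.063, and 0 passed that limit. In that contrast 37 of the 40 members were below 0, with a median of -0.12, and 1 passed. Over the 30 libraries the mean of the members followed the mean of the proliferation genes with Pearson r = 0.84 and Spearman rho = 0.72, and r was 0.82 after group means were removed and 0.84 without the 2 libraries farthest from the median on the proliferation axis. The same RNA pool and scaling enter both means. With the proliferation score as a covariate, also chosen after seeing the data, all 40 members stayed below 0 on the KCL-HO-1i average, with a median of -0.10 and 16 at an unadjusted p under 0.05, where 4.04% of all genes were.

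**Figure D4:**
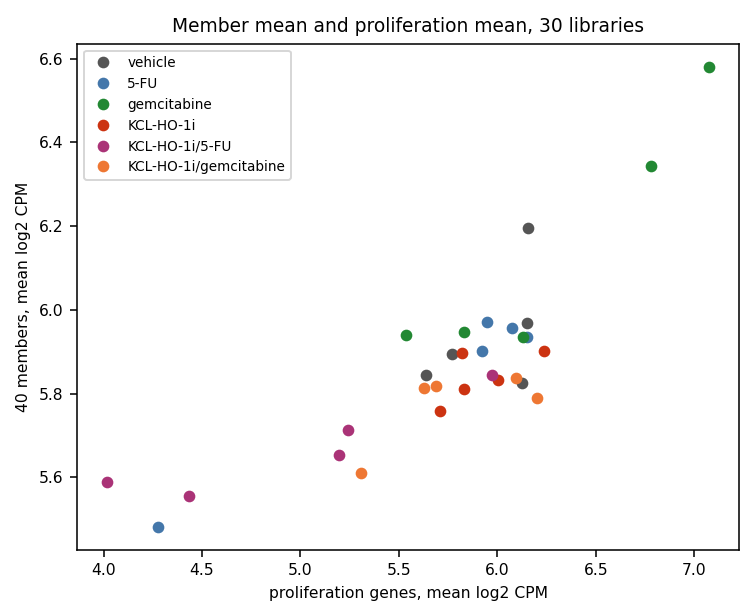
Mean log2 CPM of the 40 members (vertical axis) against that of the proliferation genes (horizontal axis), with 1 point per library colored by group. Gemcitabine replicates 1 and 3 lie at the top right, and 5-FU replicate 5 and KCL-HO-1i/5-FU replicates 2 and 3 at the lower left.

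The mouse code number in the labels could be set beside the KCL-HO-1i difference in 3 codes that hold libraries with and without the drug. Only in code 74 did both sides share a background, as it holds 2 KCL-HO-1i/5-FU libraries and 5-FU replicate 5, the lowest of its group, and there members were lower with KCL-HO-1i in 4 of 40 (median difference 0.21 in log2 CPM). Code 69 sets KCL-HO-1i replicate 4 against 5-FU replicate 4, with 29 of 40 lower (median -0.18), and code 84 sets KCL-HO-1i/gemcitabine replicate 5 against vehicle replicate 1, with 30 of 40 lower (median -0.044), so in both the chemotherapy differs as well. Of all genes, 49.4%, 48.4% and 49.8% were lower with KCL-HO-1i in codes 74, 69 and 84. With the code as a term in the fit, 30 of 40 members were below 0 on the average, with a median of -0.090. None was lower at an unadjusted p under 0.05, where 3.82% of all genes were. Heatr1 (0.24), Rrp1b (0.081) and Utp20 (0.027) were above 0. Codes and treatment groups overlap little, so they cannot be told apart for most libraries.

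The contrast of KCL-HO-1i/gemcitabine against gemcitabine held the largest difference. All 40 members were lower, with a median log2 fold change of -0.37 (a change of -22.6%) against a median of 0.00045 over all genes, and 32 were lower at an unadjusted p under 0.05 where 6.51% of all genes were. Of the gemcitabine libraries 4 carry mouse code 76 and the other 86, and no KCL-HO-1i/gemcitabine library carries either, so code and contrast cannot be told apart within these groups. With the code as a term the median was -0.20 and 0 of the 32 passed, and the share of all genes that passed in that fit is not given here. In 10 members all 5 KCL-HO-1i/gemcitabine libraries lay below all 5 gemcitabine libraries, which 0.959% of all genes did. The 10 were Polr1b, Heatr1, Utp15, Rrp1b, Noc3l, Wdr3, Wdr43, Tbl3, Utp4 and Nop14.

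Wdr3 and Wdr43, both WD-repeat proteins of the processome, had the smallest p values with Polr1b. Wdr3 was at 42.8, 48.4, 51.9, 48.3 and 49.6 CPM in the vehicle libraries, 45.8, 42.7, 40.7, 46.7 and 38.0 with 5-FU and 52.9, 49.4, 56.9, 48.6 and 49.5 with gemcitabine, in replicate order. Its levels were 47.3, 45.6, 41.7, 39.1 and 46.6 CPM with KCL-HO-1i, 44.2, 40.6, 35.8, 42.1 and 51.8 with KCL-HO-1i/5-FU and 38.8, 38.1, 44.6, 38.0 and 39.6 with KCL-HO-1i/gemcitabine. Gemcitabine replicates 1 and 3 were the highest of the group, but even replicate 4, the lowest gemcitabine library at 48.6 CPM, was above the highest KCL-HO-1i/gemcitabine library at 44.6. The log2 fold change was -0.46 ± 0.118 (SE, adjusted p = 0.282) for Wdr43 and -0.37 ± 0.088 (SE, adjusted p = 0.282) for Wdr3.

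That contrast rests in part on 2 gemcitabine tumors. Replicates 1 and 3 had 29 and 34 members above the highest vehicle library, and the other 3 gemcitabine libraries had between 1 and 3. Replicate 3 held the highest value of 29 of the 40 members. The same 2 libraries had the highest proliferation means of the 30, 6.78 and 7.08 in log2 CPM. Without both, a choice made after seeing the data, the median for KCL-HO-1i/gemcitabine against gemcitabine was -0.18 with 7 members at an unadjusted p under 0.05, and without replicate 3 alone 16 passed. The share of all genes that passed in those fits is not given here for this contrast. The KCL-HO-1i average without both replicates kept all 40 members below 0, with a median of -0.16 and 20 at an unadjusted p under 0.05, where 7.73% of all genes were.

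In gemcitabine against vehicle members were mostly higher. The log2 fold change was above 0 for 39 of 40 with a median of 0.23, and 12 were higher at an unadjusted p under 0.05 where 2.05% of all genes were, but 0 with the mouse code as a term. Dkc1 was at 0.42 ± 0.162 (SE, adjusted p = 0.941), the RNA helicase gene Ddx56 at 0.21 ± 0.084 (SE, adjusted p = 0.941) and Gnl3 at 0.49 ± 0.194 (SE, adjusted p = 0.941). Gnl3 was at 67.5, 50.1, 98.1, 49.7 and 64.0 CPM in the vehicle libraries, 64.5, 65.1, 62.0, 65.7 and 41.9 with 5-FU and 118, 69.95, 137, 58.4 and 77.5 with gemcitabine, in replicate order. Its levels were 65.9, 62.9, 58.5, 68.1 and 68.2 CPM with KCL-HO-1i, 59.6, 46.3, 49.4, 56.0 and 58.5 with KCL-HO-1i/5-FU and 61.0, 66.1, 65.3, 46.4 and 67.6 with KCL-HO-1i/gemcitabine. Gemcitabine replicates 1 and 3, at 118 and 137 CPM, stood above every other library, and the other 3 lay within the vehicle range of 49.7 to 98.1. Without replicates 1 and 3 the median of the 40 was -0.015 and 0 were higher at an unadjusted p under 0.05, and without replicate 3 alone 0 were. Leaving out gemcitabine replicate 1, vehicle replicate 4 or vehicle replicate 2 gave 2, 2 and 5. For this contrast the share of all genes that passed with libraries left out or with the mouse code is not given here. Gemcitabine replicates 1 and 3 share their mouse code number, 76, with gemcitabine replicates 2 and 4 and 5-FU replicates 1 to 3.

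**Figure D5:**
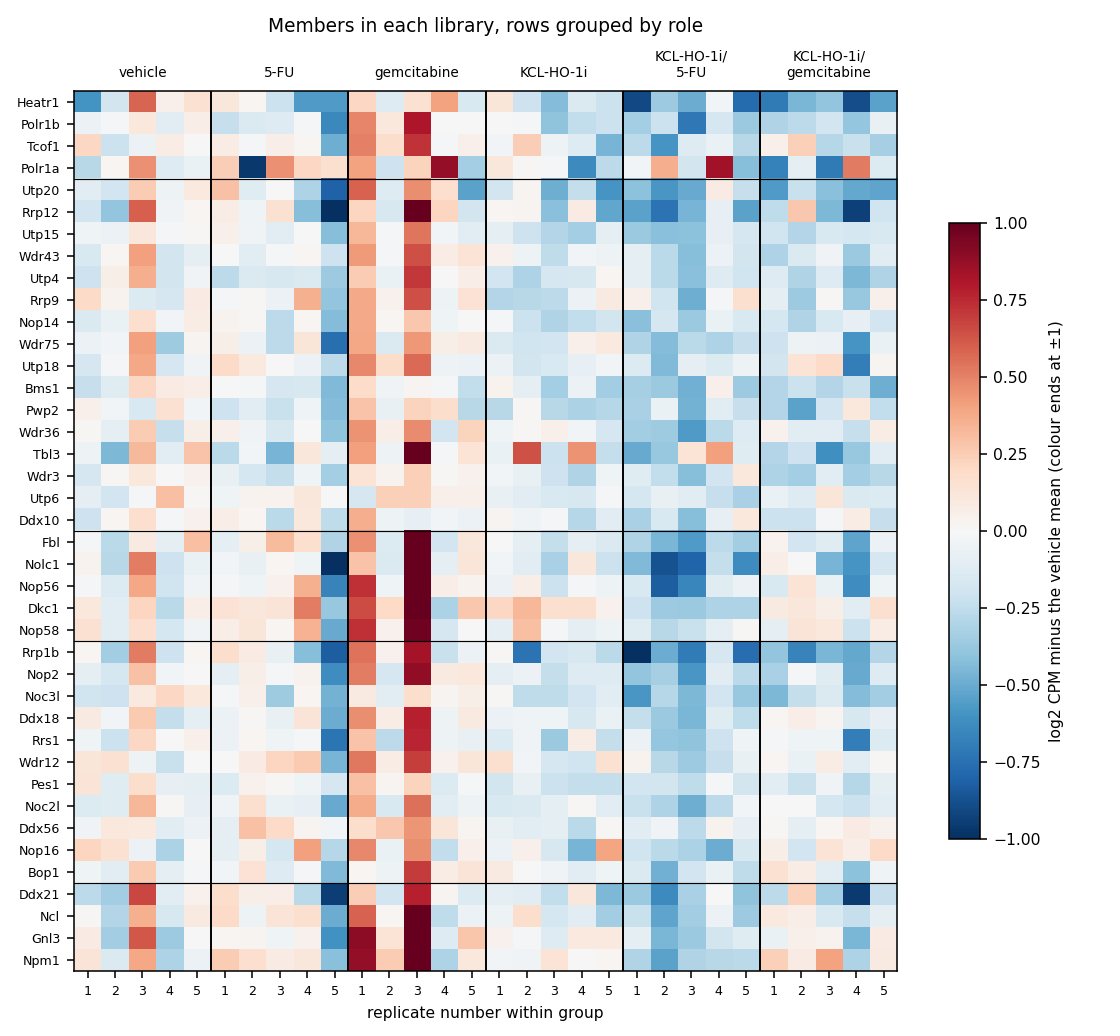
Log2 CPM of each member minus its vehicle mean (color, ends at ±1) in each library, with the genes in rows grouped by role and the libraries in columns grouped by treatment. Gemcitabine replicates 1 and 3 are red in most rows, 5-FU replicate 5 is blue in most rows, and the 3 KCL-HO-1i groups are mostly pale blue.

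With gemcitabine averaged over the vehicle and KCL-HO-1i backgrounds, 33 of 40 members were above 0 with a median of 0.089 (-0.042 without gemcitabine replicates 1 and 3), and 2 members were higher at an unadjusted p under 0.05, where 2.54% of all genes were. They were Ddx56 at 0.16 ± 0.06 (SE, adjusted p = 0.838) and Npm1 at 0.28 ± 0.13 (SE, adjusted p = 0.838). Against KCL-HO-1i alone, KCL-HO-1i/gemcitabine had a median of -0.037 (0.0059 without KCL-HO-1i/gemcitabine replicate 4), and 1 member, Heatr1 at -0.42 ± 0.187 (SE, adjusted p = 1), was lower at an unadjusted p under 0.05, where 1.46% of all genes were. The interaction of KCL-HO-1i and gemcitabine was below 0 in all 40 members, with a median of -0.26, and 4 members passed an unadjusted p of 0.05 where 0.695% of all genes did. The 3 with the smallest p were Tbl3 at -0.86 ± 0.324 (SE, adjusted p = 1), Dkc1 at -0.54 ± 0.228 (SE, adjusted p = 1) and Wdr43 at -0.38 ± 0.167 (SE, adjusted p = 1). Without gemcitabine replicates 1 and 3 the median interaction was -0.055.

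Against vehicle, KCL-HO-1i/5-FU had the lower values of the combinations. Of the 40 members 39 were below 0, with a median of -0.29 (a change of -18%), and 15 were lower at an unadjusted p under 0.05 where 7.84% of all genes were, but 0 with the mouse code as a term. The smallest p were those of Noc3l at -0.38 ± 0.109 (SE, adjusted p = 0.119), Rrp1b and Wdr36, a processome subunit, at -0.33 ± 0.114 (SE, adjusted p = 0.147). KCL-HO-1i/5-FU replicates 2 and 3 had 32 and 30 members below the lowest vehicle library, and the other 3 had between 9 and 23. Without vehicle replicate 3 or KCL-HO-1i/5-FU replicate 3 the count of 15 was 9. With the proliferation score as a covariate the median was -0.015 and 2 members passed, and the macrophage score also left 2. For this contrast the share of all genes that passed with a score, the mouse code or a library left out is not given here. Of the 24 proliferation genes 19 were lower at an unadjusted p under 0.05 in the same contrast.

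KCL-HO-1i/gemcitabine against vehicle had a median of -0.17, and 7 members were lower at an unadjusted p under 0.05 where 8.04% of all genes were. Noc3l was at -0.33 ± 0.109 (SE, adjusted p = 0.106) and Wdr3 at -0.28 ± 0.088 (SE, adjusted p = 0.099). With the macrophage score as a covariate the median was 0.0042. These comparisons share the 5 vehicle libraries and so are not independent of each other.

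With 5-FU given alone no member passed even the unadjusted limit. The median log2 fold change was -0.10, 32 of 40 were below 0 and 0 were lower at an unadjusted p under 0.05, where 2.24% of all genes were. The smallest p was that of Wdr3 at -0.17 ± 0.088 (SE, adjusted p = 0.999). One library stood apart, since 5-FU replicate 5 had 34 members below the lowest vehicle library, the other 4 had between 3 and 9, and its proliferation mean was 4.28 in log2 CPM. Nolc1 showed it most. Nolc1 was at 84.27, 68.2, 118, 71.3 and 78.8 CPM in the vehicle libraries, 81.0, 78.5, 83.4, 80.1 and 41.3 with 5-FU and 101, 74.38, 171, 77.0 and 89.8 with gemcitabine, in replicate order. Its levels were 80.7, 76.24, 65.8, 88.9 and 70.9 CPM with KCL-HO-1i, 60.5, 45.2, 47.2, 70.03 and 53.4 with KCL-HO-1i/5-FU and 86.5, 82.7, 59.6, 54.9 and 73.5 with KCL-HO-1i/gemcitabine. In 5-FU replicate 5 Nolc1 was at 41.3 CPM, and the other 4 libraries of the group lay between 78.5 and 83.4, within the vehicle range.

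Averaged over the vehicle and KCL-HO-1i backgrounds, 5-FU had a median of -0.13 (0.023 with the proliferation score as a covariate) and 4 members lower at an unadjusted p under 0.05, where 6.4% of all genes were. Wdr36 was at -0.20 ± 0.081 (SE, adjusted p = 0.359), Noc3l at -0.18 ± 0.077 (SE, adjusted p = 0.376) and Nolc1 at -0.34 ± 0.148 (SE, adjusted p = 0.387). The combination with 5-FU set against KCL-HO-1i had a median of -0.18 with 3 members lower at an unadjusted p under 0.05, a share under the 9.43% of all genes. In 4 members, Wdr75, Fbl, Dkc1 and Npm1, the libraries of these groups did not overlap, as in 2.55% of all genes. KCL-HO-1i/5-FU against 5-FU had a median of -0.17 with 7 members lower where 5.26% of all genes were, among them Fbl at -0.43 ± 0.181 (SE, adjusted p = 0.379). The interaction of KCL-HO-1i and 5-FU had a median of -0.065 (0.12 with the mouse code as a term and 0.098 with the proliferation score), and 1 member, Dkc1, passed where 4.51% of all genes did.

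The members varied together from tumor to tumor. Over the 780 pairs of members the median Pearson r of log2 CPM after removal of group means was 0.54, with quartiles of 0.32 and 0.69 over 30 libraries. The closest pair was the helicase gene Ddx21 with Rrp12, a small-subunit export factor (r = 0.97). Utp6 (r = -0.046 with the mean of the other members) and Polr1a (r = 0.030) were the least like the rest, and the pair of Utp6 and Wdr36 had the lowest r of -0.30. Outside every list, the 2 genes whose residuals were most like the mean of the members were Lyar (r = 0.91) and Nkrf (r = 0.90).

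Other ribosome biogenesis genes gave a similar but smaller difference. All 125 such genes present in the table, from a list that shares no gene with the 40, were tested, and on the KCL-HO-1i average 120 were below 0 with a median of -0.13, with 46 lower and 0 higher at an unadjusted p under 0.05. Of all genes 9.22% were lower at that limit. By role, 22 of 45 large-subunit, 13 of 39 small-subunit, 4 of 11 snoRNP, 5 of 15 exosome and exonuclease and 2 of 15 RNA polymerase I genes were lower, the last a share not far from that of all genes. Over the 30 libraries the means of both lists followed each other with Pearson r = 0.89 and Spearman rho = 0.71, and r was 0.82 after group means were removed and 0.75 without the 2 libraries farthest from the median of the other list. The 79 cytosolic ribosomal protein genes, whose products are what these factors assemble, had a median of -0.084 with 0 at an unadjusted p under 0.05. Among 11 genes of the Myc family and its partners, 1 was lower, a share near that of all genes, and 0 higher, with a median of 0.059. On the average Myc itself was at -0.25 ± 0.131 in log2 fold change (SE, adjusted p = 0.257, edgeR). Myc was at 79.2, 69.7, 131, 70.3 and 70.1 CPM in the vehicle libraries, 66.6, 72.5, 80.2, 85.9 and 60.2 with 5-FU and 153, 77.0, 172, 70.15 and 96.3 with gemcitabine, in replicate order. Its levels were 72.3, 84.7, 69.36, 97.6 and 71.6 CPM with KCL-HO-1i, 96.7, 50.7, 72.5, 74.07 and 79.5 with KCL-HO-1i/5-FU and 63.25, 82.2, 82.6, 46.4 and 78.1 with KCL-HO-1i/gemcitabine. Gemcitabine replicates 1 and 3, at 153 and 172 CPM, were the highest libraries for Myc, as for most members, and KCL-HO-1i/gemcitabine replicate 4 was the lowest.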

How the data were processed

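Total RNA of mammary tumors was sequenced from stranded libraries. Per the labels and the methods of the study, the authors used FastQC 0.11.9, STAR 2.7.9a, Salmon 1.9.0 and tximport with genome build mm10; the annotation release is not given in the sources used here. The values deposited by the authors are expected counts, that is estimated reads of each gene without scaling for length or depth, and 38% of its values are not whole numbers. Values were rounded before testing. Salmon divides reads among similar transcripts, which can shift counts between copies of a gene.

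Groups were taken from the labels. Tests used R 4.3.3 with edgeR 4.0.16 (TMM normalization, robust quasi-likelihood fit, 6 group means, all 30 libraries, 14 contrasts and 1 test of any difference), after the filterByExpr filter by group with a minimum count of 10. P-values were two-sided and adjusted by Benjamini-Hochberg over 13663 genes. List means used log2 CPM with a prior count of 2. Other fits used DESeq2 1.42.0 and limma 3.58.1, and the pipeline was tested on simulated data. The members and lists were chosen with earlier results of these data known. Named members were 13 fixed genes, up to 3 per contrast with the smallest unadjusted p under 0.05, and up to 5 per comparison whose libraries did not overlap; other members were named after their values were seen. Libraries of a group were compared by a chi-square of their counts, and none was a repeat (lowest value per degree of freedom 19.9 over 60 pairs). Promoters came from RefSeq (GRCm38.p6) and positions from GENCODE M21.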

Additional observations from a re-analysis of the deposited data

Results flagged for a closer look

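In 150 groups of 5 libraries (24 named genes and the mean of the 40 members, each in 6 groups), 13 held a library far from the others, where the gap to the nearest library divided by the range of the group passed 0.71. Chance gives about 1 in 20. The mean of the members gave 0.858 in 5-FU, where replicate 5 was lowest, and 0.795 in KCL-HO-1i/gemcitabine, where replicate 4 was lowest. The same 5-FU library was lowest for Nolc1 (0.913, 41.3 against 78.5 CPM in the nearest library), Gnl3 (0.874), Tcof1 (0.845) and Npm1 (0.745). KCL-HO-1i/gemcitabine replicate 4 was lowest for Gnl3 (0.723) and Wdr75 (0.713), and replicate 3 of that group was highest for Wdr3 (0.735). Npm1 in KCL-HO-1i/5-FU gave 0.888, with replicate 2 lowest. Polr1a in 5-FU gave 0.79, with replicate 2 at 12.5 CPM against 27.3 in the nearest library. Bop1 gave 0.762 in vehicle, with replicate 3 highest at 84.7 CPM, and 0.755 in gemcitabine, with replicate 3 highest at 115 CPM.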

How the results depend on the processing

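When any 1 library was left out, no named member changed direction, and of the medians only that of KCL-HO-1i/gemcitabine against KCL-HO-1i did, with a range of -0.079 to 0.0059. With the mouse code as a term, the log2 fold change of Heatr1 reversed to 0.24 on the KCL-HO-1i average and 0.065 for KCL-HO-1i/gemcitabine against vehicle, those of Rrp1b and Utp20 to 0.081 and 0.027 on the average, and the median interaction of KCL-HO-1i and 5-FU moved to 0.12. That term left 0 members at an unadjusted p under 0.05 on the average (3.82% of all genes lower), for KCL-HO-1i/gemcitabine against gemcitabine, for KCL-HO-1i/5-FU against vehicle and for gemcitabine against vehicle. With the proliferation score, Nolc1 in the combination with 5-FU set against KCL-HO-1i reversed to 0.0087, and the medians of KCL-HO-1i/5-FU were 0.0093 against 5-FU, 0.079 against KCL-HO-1i and -0.015 against vehicle; 16, 19, 2 and 5 members passed the unadjusted limit in those 4 contrasts. With the macrophage score 5, 10 and 2 passed in the first 3, and the medians of KCL-HO-1i/gemcitabine were -0.19 against gemcitabine and 0.0042 against vehicle. The adipocyte score left 21 on the average. Without gemcitabine replicates 1 and 3 the counts in the 4 contrasts were 20, 7, 26 and 0, and the medians were -0.18 for KCL-HO-1i/gemcitabine against gemcitabine, -0.015 for gemcitabine against vehicle and -0.055 for the gemcitabine interaction. Without 5-FU replicate 5 and KCL-HO-1i/5-FU replicates 2 and 3, 4 members passed for KCL-HO-1i/5-FU against vehicle. The macrophage and proliferation scores and both joint omissions were chosen after seeing the data. Outside the KCL-HO-1i average, the share of all genes that passed in these fits is not given here. Those counts are therefore not a result about the members.

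With only the groups compared, 21 members were lower for KCL-HO-1i/gemcitabine against gemcitabine and 0 higher for gemcitabine against vehicle, and limma-voom gave 16 and 5. For these counts too the share of all genes is not given here. At an adjusted p under 0.05, DESeq2 called 16 members on the average, 1 for KCL-HO-1i/5-FU against vehicle, 4 for KCL-HO-1i/gemcitabine against gemcitabine and 2 for KCL-HO-1i/gemcitabine against vehicle, and limma-voom called 5 on the average and 5 for the last. Of all 13598 genes it tested, DESeq2 called 1139, 408, 45 and 883 in the same order. Of all 13663 genes limma-voom called 267 on the average and 1322 for KCL-HO-1i/gemcitabine against vehicle. Against vehicle the members were thus called at a share near that of all genes. Leaving out 1 library at a time gave 0 to 18 adjusted calls on the average and 0 to 2 in the test among 6 groups, where 5-FU replicate 5, gemcitabine replicate 4 or gemcitabine replicate 5 gave 1, 2 and 1. The share of all genes called in those fits is not given here. The unadjusted counts ran from 27 to 38 on the average, 16 to 37 for KCL-HO-1i/gemcitabine against gemcitabine, 9 to 22 for KCL-HO-1i/5-FU against vehicle and 0 to 16 for gemcitabine against vehicle, again with no share of all genes given. The cause of these shifts was not tested. RLE normalization, the absence of a filter, a minimum mean of 50 counts and a prior count of 0.5 moved no main count or median past these limits.

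Replicate numbers did not pair samples: over 75 pairs of libraries that carry 1 number in different groups, the mean correlation of their deviations was 0.00284. With the replicate block, 32 members were lower at an unadjusted p under 0.05 on the average, and the median was -0.20.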
